A study of Rattus norvegicus with 8 samples.

Results

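The genes described here encode NF-kB subunits and the feedback inhibitors that NF-kB induces: Nfkb1, Nfkb2, Rela, Relb, Nfkbia, Nfkbie, Nfkbiz, Tnfaip3, Birc3 and Bcl3. Members were found by the gene name printed for each array probe. Of the 10 genes, 8 had a probe under their own name, and all 8 were among the 16921 genes tested. Relb and Tnfaip3 had none under those names and are not analysed here, apart from a probe named LOC683206 that is described separately. RNA came from N27 cells, an immortalized rat line derived from embryonic midbrain and labelled dopaminergic. The groups were Mn at 150 µM for 48 h, MPP+ at 250 µM for 48 h, 3-NPA with neither dose nor time in the labels, and Control, with 2 single-colour Agilent arrays each and 8 arrays in all. Mn is manganese, a metal toxic to midbrain neurons in excess, MPP+ is known as an inhibitor of mitochondrial complex I, and 3-NPA as an inhibitor of complex II. No vehicle is named for the controls, and all 4 groups share the 1 cell line. Whether replicates came from separate cultures is not stated, so every p-value rests on array-to-array spread that may be technical.

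NF-kB is a family of dimeric transcription factors built from Rel-domain subunits. In resting cells, IkB proteins hold the dimers in the cytoplasm, and IkB kinases that act downstream of cytokine and pattern receptors mark IkB for degradation. The freed dimers induce inflammatory and survival genes and also the genes of their own precursors and inhibitors, so that Nfkbia and Tnfaip3 are classical feedback targets. In midbrain, NF-kB is best known for its part in neuroinflammation, in glia as well as in neurons.

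The promoter stretches that hold the NF-kB consensus motif are shown because they mark which of these genes carry that sequence close to the start. RefSeq promoter sequences on GRCr8, each 250 bases before to 50 after the start, were matched by symbol for 8 of the 10 genes (all but Relb and Birc3). The motif, 10 bases long and searched on both strands, was in 7 of these 8 promoters, among them Tnfaip3 with 3 positions and none in Rela. It was in 2515 of the 33469 promoters in the table, or 7.51%. A match describes the letters and does not show that the factor binds there. In the gene's own orientation and 5′ to 3′, with the match in capitals, the stretches are as follows.
Nfkb1: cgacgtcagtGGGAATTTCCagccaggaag
Nfkb2: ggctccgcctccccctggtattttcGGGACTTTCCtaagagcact
Nfkbia: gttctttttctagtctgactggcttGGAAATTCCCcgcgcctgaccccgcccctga
Nfkbie: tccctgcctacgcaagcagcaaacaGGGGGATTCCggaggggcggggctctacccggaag
Nfkbiz: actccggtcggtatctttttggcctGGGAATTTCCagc
Bcl3: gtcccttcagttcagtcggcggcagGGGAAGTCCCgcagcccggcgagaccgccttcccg

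On GRCr8 the Nfkb1 stretch lies at chr2:226805440-226805469 on the minus strand, and its match runs from base 4 to base 13 after the start. The other matches lie before the start. The Nfkb2 stretch is chr1:255108329-255108373 on the plus strand, and the Nfkbia stretch is chr6:78597073-78597128 on the minus strand. The Nfkbie stretch is chr9:22948002-22948061 on the minus strand, the Nfkbiz stretch is chr11:58251683-58251720 on the plus strand and the Bcl3 stretch is chr1:88613559-88613618 on the minus strand. The nearest match to the start among these upstream stretches was that of Nfkbiz, at positions -13 to -4, and the farthest was that of Nfkbie, at positions -164 to -155.

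Each array measured a gene through 60-base probes. Those of Nfkb2 and Nfkbia are shown as the probes behind a higher and a lower value, and those of Rela because its pair of probes gave different results.
Nfkb2 probe: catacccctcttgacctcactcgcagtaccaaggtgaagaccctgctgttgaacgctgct
Nfkbia probe: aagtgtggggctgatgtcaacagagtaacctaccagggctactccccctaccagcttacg
Rela brighter probe: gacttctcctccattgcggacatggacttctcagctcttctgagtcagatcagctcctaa
Rela dimmer probe: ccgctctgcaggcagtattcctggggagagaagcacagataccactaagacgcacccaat

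By the positions in the array files (rn4), the Nfkb2 probe covers chr1:251526647-251526839 on the plus strand, 193 positions for its 60 bases, and the Nfkbia probe covers chr6:75730438-75730497 on the minus strand. The brighter Rela probe lies at chr1:208272360-208272419 and the dimmer at chr1:208263526-208263582, both on the plus strand. The other probes lie at chr2:233091704-233091763 (Nfkb1, minus), chr9:11044255-11044314 (Nfkbie, minus), chr11:45810786-45810845 (Nfkbiz, plus), chr1:79122832-79122891 (Bcl3, minus) and chr8:4682606-4682665 (Birc3, minus). Which exon or UTR each probe lies in was not assigned, since no annotation of rn4 was used here.

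Levels are log2 signals relative to the 75th percentile of the array, so 0 is that percentile, and levels are not compared between genes. All 9 member probes were well above background on all 8 arrays. Replicate arrays correlated at 0.9915 (Mn), 0.9969 (MPP+), 0.9943 (3-NPA) and 0.9904 (Control) over the probes used, and each array had 32711 to 41354 of its 58717 non-control spots well above background. All arrays shared 1 slide and 1 scan, but each group had its own slide row and column range, and the 3-NPA arrays came from the later of 2 image extraction runs, so position and, for 3-NPA, run cannot be told apart from group. The dopaminergic label was borne out only in part. Of 9 listed markers, Th, tyrosine hydroxylase, lay at -1.77 to -2.02, and Th, Slc18a2 and Nr4a2 were well above background on all 8 arrays. Ddc, Aldh1a1 and Pitx3 were so on 6, 5 and 4 arrays. The dopamine transporter Slc6a3 and Foxa2 were not well above background on any array, and En1 had no probe. Differences were tested with limma across all genes, with Benjamini-Hochberg adjustment and a threshold of 0.05. A single gene tested by permutation with 2 arrays per group could not go below p = 0.333.

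With 3-NPA, 4 of the 8 genes were called lower, against 16.0% of all genes: Nfkb1, Nfkbia, Nfkbie and Bcl3 were 1.65-fold to 1.96-fold lower than in Control. With MPP+, Nfkbia and Bcl3 were called lower, by less, against 6.48% of all genes. With Mn, Nfkb2 was the only one of the 8 to pass the test, 1.51-fold higher, against 4.50% of all genes called higher. The 3-NPA calls held under every alternative run, whereas each call with Mn or MPP+ was lost under some. The 3-NPA mean was the lowest of the 4 groups for 7 of the 8 genes (all but Rela), against 29.2% of all genes tested, and the Mn mean was the highest for 6 of the 8, against 15.7% of all genes. Among those 6, Nfkb1 and Nfkbia had Mn means only 0.13 and 0.02 above Control on the log2 scale, with overlapping arrays. In whole-culture RNA, fewer cells of a kind and less RNA per cell cannot be told apart.

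**Figure D1:**
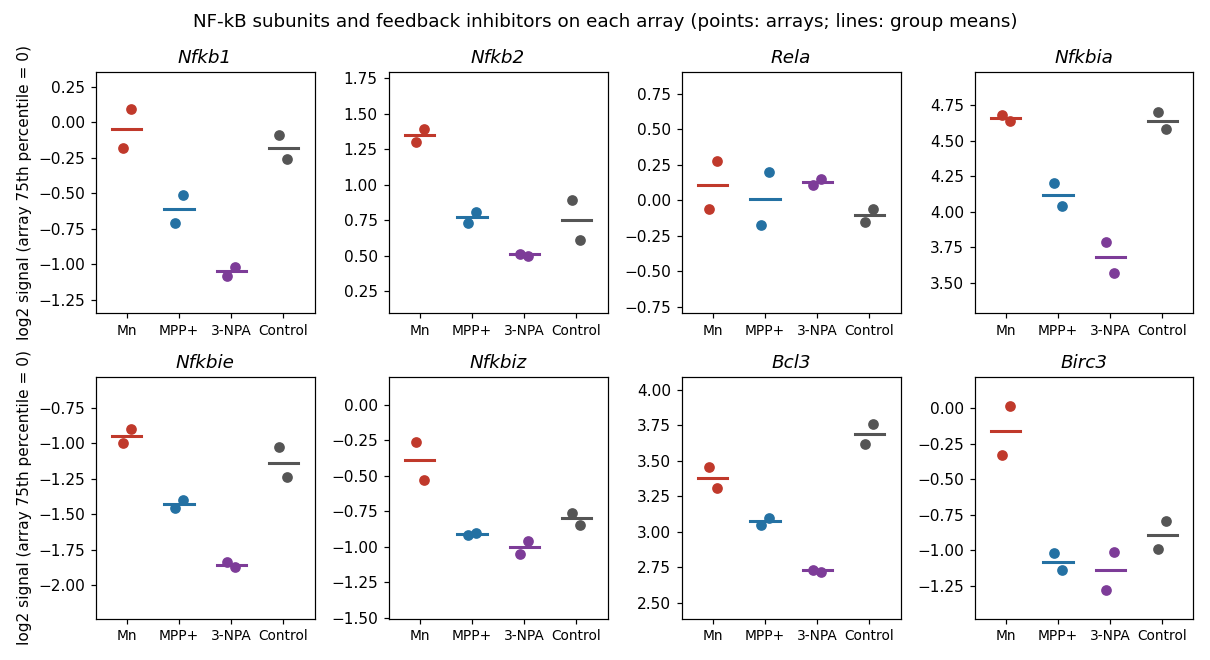
Log2 signal of the 8 genes (array 75th percentile at 0) on each of the 8 arrays, by group; points are arrays, lines are means of 2 arrays, and every panel spans the same height. The 3-NPA points of Nfkb1, Nfkb2, Nfkbia, Nfkbie, Nfkbiz and Bcl3 lie below all other points of those genes. The Mn points of Nfkb2, Nfkbie, Nfkbiz and Birc3 lie above all others.

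Nfkb1 encodes p105, the precursor of the p50 subunit. Its level was -0.18 and 0.09 under Mn, -0.71 and -0.51 under MPP+, -1.08 and -1.02 under 3-NPA, and -0.09 and -0.26 in Control. The 3-NPA arrays were the lowest, the MPP+ arrays came next, and the Mn and Control arrays overlapped. Nfkb1 was lower with 3-NPA than in Control by a log2 difference of -0.87 ± 0.14 (SE; limma, adjusted p = 0.00478). With MPP+ the difference was -0.43 ± 0.14 (adjusted p = 0.0897), and with Mn it was 0.13 ± 0.14 (adjusted p = 0.581); neither passed the test. In the order Mn, Control, MPP+, 3-NPA, no neighbouring pair differed past the threshold.

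Nfkb2 encodes p100, which is both an inhibitor and the precursor of p52, the subunit of the noncanonical branch. Its level was 1.30 and 1.39 under Mn, 0.73 and 0.81 under MPP+, 0.51 and 0.50 under 3-NPA, and 0.89 and 0.61 in Control. Both Mn arrays lay above all others, and the MPP+ arrays lay between the 2 Control arrays. Nfkb2 was higher with Mn than in Control by 0.60 ± 0.12 (95% interval 0.31 to 0.89, adjusted p = 0.0386). The MPP+ difference was 0.02 ± 0.12 (adjusted p = 0.932) and the 3-NPA difference was -0.24 ± 0.12 (adjusted p = 0.158).

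Rela encodes p65, the subunit with the main transactivation domain. On its brighter probe the level was -0.06 and 0.28 under Mn, -0.17 and 0.20 under MPP+, 0.11 and 0.15 under 3-NPA, and -0.15 and -0.06 in Control. The spread between replicate arrays was of the size of the differences between groups, and its group means spanned 0.23, the least of the 8 genes. No comparison of this probe passed the test, and the 95% intervals of the differences from Control reached from -0.20 to 0.62 with Mn, from -0.29 to 0.53 with MPP+ and from -0.17 to 0.64 with 3-NPA.

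The dimmer Rela probe, with 1 spot per array, gave -3.93 and -3.86 under Mn, -4.15 and -4.45 under MPP+, -4.64 and -4.50 under 3-NPA, and -4.18 and -3.88 in Control. Here the 3-NPA arrays were the lowest. In a fit over probes, this one was lower with 3-NPA than in Control by -0.54 ± 0.15 (limma, adjusted p = 0.0353), against 0.23 ± 0.17 (adjusted p = 0.316) for the brighter probe. It was higher with Mn than with 3-NPA by 0.67 ± 0.15 (adjusted p = 0.0224), against -0.02 ± 0.17 (adjusted p = 0.941). The probes thus gave different signs with 3-NPA, and no direction is given for Rela.

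Nfkbia encodes IkB-alpha, the inhibitor that NF-kB resynthesizes first. Its level was 4.68 and 4.64 under Mn, 4.20 and 4.04 under MPP+, 3.79 and 3.57 under 3-NPA, and 4.70 and 4.58 in Control. The Mn arrays lay within the range of the Control arrays, the MPP+ arrays lay below both groups and the 3-NPA arrays lay lower still. Nfkbia was lower than in Control by -0.96 ± 0.12 with 3-NPA (limma, adjusted p = 0.00197) and by -0.52 ± 0.12 with MPP+ (adjusted p = 0.0362). With Mn the difference was 0.02 ± 0.12, with a 95% interval of -0.27 to 0.30.

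Nfkbie encodes IkB-epsilon, a slower feedback inhibitor of the same family. Its level was -1.0 and -0.90 under Mn, -1.46 and -1.40 under MPP+, -1.84 and -1.87 under 3-NPA, and -1.03 and -1.24 in Control. No 2 groups overlapped. Nfkbie was lower with 3-NPA than in Control by -0.72 ± 0.10 (limma, adjusted p = 0.00361). The MPP+ difference was -0.29 ± 0.10 (adjusted p = 0.119) and the Mn difference was 0.18 ± 0.10 (adjusted p = 0.323), and neither passed.

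Bcl3 and Nfkbiz encode nuclear IkB-family proteins that bind p50 or p52 dimers on DNA and can activate or repress their targets. Bcl3 lay at 3.46 and 3.31 under Mn, 3.05 and 3.10 under MPP+, 2.73 and 2.72 under 3-NPA, and 3.62 and 3.76 in Control. All toxin arrays lay below both Control arrays, in the order Mn, MPP+, 3-NPA, and no 2 groups overlapped. Bcl3 was lower than in Control by -0.97 ± 0.10 with 3-NPA (limma, adjusted p = 0.00114) and by -0.62 ± 0.10 with MPP+ (adjusted p = 0.0145), while the Mn difference of -0.31 ± 0.10 did not pass (adjusted p = 0.117). Its probe had 10 spots per array, which spread by 0.07 to 0.69 on the log2 scale within an array.

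Nfkbiz lay at -0.26 and -0.53 under Mn, -0.92 and -0.90 under MPP+, -1.05 and -0.96 under 3-NPA, and -0.76 and -0.85 in Control. The Mn arrays were the highest and did not overlap the Control arrays, but the Mn difference of 0.41 ± 0.12 did not pass (limma, adjusted p = 0.092). The MPP+ and 3-NPA differences were -0.11 ± 0.12 (adjusted p = 0.567) and -0.20 ± 0.12 (adjusted p = 0.214).

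Birc3 encodes cIAP2, a ubiquitin ligase of receptor complexes and an NF-kB target. It lay at -0.33 and 0.02 under Mn, -1.02 and -1.14 under MPP+, -1.28 and -1.01 under 3-NPA, and -0.99 and -0.79 in Control. Both Mn arrays lay above all others, with a difference from Control of 0.74 ± 0.16, the largest of the 8 genes with Mn, and yet it missed the threshold (95% interval 0.33 to 1.14, limma, adjusted p = 0.0519). With MPP+ and 3-NPA the differences were -0.19 ± 0.16 (adjusted p = 0.471) and -0.25 ± 0.16 (adjusted p = 0.271).

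**Figure D2:**
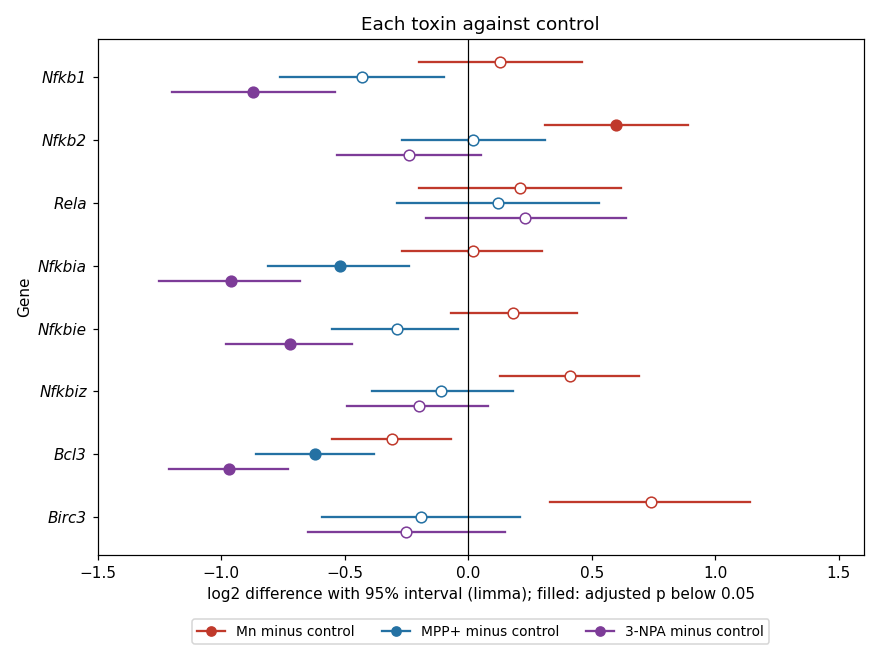
Log2 difference of each toxin from Control for the 8 genes, with 95% intervals from limma; filled points have an adjusted p below 0.05. Filled points lie left of 0 for Nfkbia and Bcl3 with MPP+ and for Nfkb1, Nfkbia, Nfkbie and Bcl3 with 3-NPA, and right of 0 for Nfkb2 with Mn.

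Against Control, 1 of the 8 genes was called with Mn, where 7.65% of all genes were called in either direction and 4.50% higher. With MPP+, 2 of the 8 were called, both lower, where 14.0% of all genes were called and 6.48% lower. With 3-NPA, 4 of the 8 were called, all lower, where 38.3% of all genes were called and 16.0% lower. The arrays of toxin and Control did not overlap for 5 of the 8 genes with Mn, 6 with MPP+ and 8 with 3-NPA, while the same held for 50.5%, 63.5% and 71.9% of all genes. The median log2 difference of the 8 genes was 0.20 with Mn, -0.24 with MPP+ and -0.48 with 3-NPA, and that of all genes was -0.02, 0.02 and 0.05. The 3 comparisons share the Control arrays, so their values for a gene are not independent.

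These calls differed in how far they held. The 4 calls with 3-NPA held under each of the 21 alternatives run. The Nfkb2 call with Mn was lost under 11 of 22, among them when any 1 array other than the first Control array was left out, and with MPP+ the Nfkbia call was lost under 13 of 22 and the Bcl3 call under 4. Scaling each array to its median instead of its 75th percentile moved the median of all genes by 0.08 with Mn, 0.11 with MPP+ and -0.14 with 3-NPA, and neither MPP+ call passed under it. Relative to the median gene of the comparison, Nfkb2 was higher by 0.61 with Mn, Nfkbia and Bcl3 changed by -0.54 and -0.63 with MPP+, and Nfkb1, Nfkbia, Nfkbie and Bcl3 changed by -0.92, -1.02, -0.77 and -1.02 with 3-NPA.

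The toxins were also compared with each other, which does not use the Control levels. Mn at 150 µM and MPP+ at 250 µM were both given for 48 h, at doses that differ, and the dose and time of 3-NPA are not in the labels. Of the 8 genes, 5 were higher with Mn than with MPP+: Nfkb2, Nfkbia, Nfkbie, Nfkbiz and Birc3. Birc3 had the largest difference, 0.93 ± 0.16 (limma, adjusted p = 0.026), followed by Nfkb2 at 0.58 ± 0.12 (adjusted p = 0.0375) and Nfkbia at 0.54 ± 0.12 (adjusted p = 0.0423). Of all genes, 9.08% were called between Mn and MPP+, and 4.88% were higher with Mn. The number of the 8 genes called fell to between 0 and 3 when any 1 array was left out and to 0 when the 4 arrays of these groups were fitted alone.

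Between Mn and 3-NPA, 7 of the 8 genes were higher with Mn, by 0.61 to 1.00, and the exception was Rela at -0.02 ± 0.17, whose sign turned with each array scaled to its median (0.19). Nfkb1 was higher by 1.00 ± 0.14 (limma, adjusted p = 0.00386), Birc3 by 0.99 ± 0.16 (adjusted p = 0.00804), Nfkbia by 0.98 ± 0.12 (adjusted p = 0.00252) and Nfkbie by 0.91 ± 0.10 (adjusted p = 0.00231). Nfkb2 was higher by 0.84, Bcl3 by 0.65 and Nfkbiz by 0.61. Of all genes, 28.6% were called in this comparison, and 11.7% were higher with Mn.

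Between MPP+ and 3-NPA, 3 of the 8 were higher with MPP+: Nfkbia by 0.44 ± 0.12 (limma, adjusted p = 0.0335), Nfkbie by 0.43 ± 0.10 (adjusted p = 0.0256) and Bcl3 by 0.35 ± 0.10 (adjusted p = 0.0412). Nfkb1 differed by 0.44 ± 0.14, which missed the threshold (adjusted p = 0.0536). Here 31.0% of all genes were called and 12.9% were higher with MPP+. None of the 3 calls passed when either MPP+ array or either 3-NPA array was left out, and with each array scaled to its median or with array weights 5 of the 8 genes were called. For Nfkb2, Nfkbiz and Birc3 the MPP+ minus 3-NPA differences were 0.26, 0.10 and 0.06, with 95% intervals that reached from -0.03 to 0.55, from -0.19 to 0.38 and from -0.34 to 0.46.

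**Figure D3:**
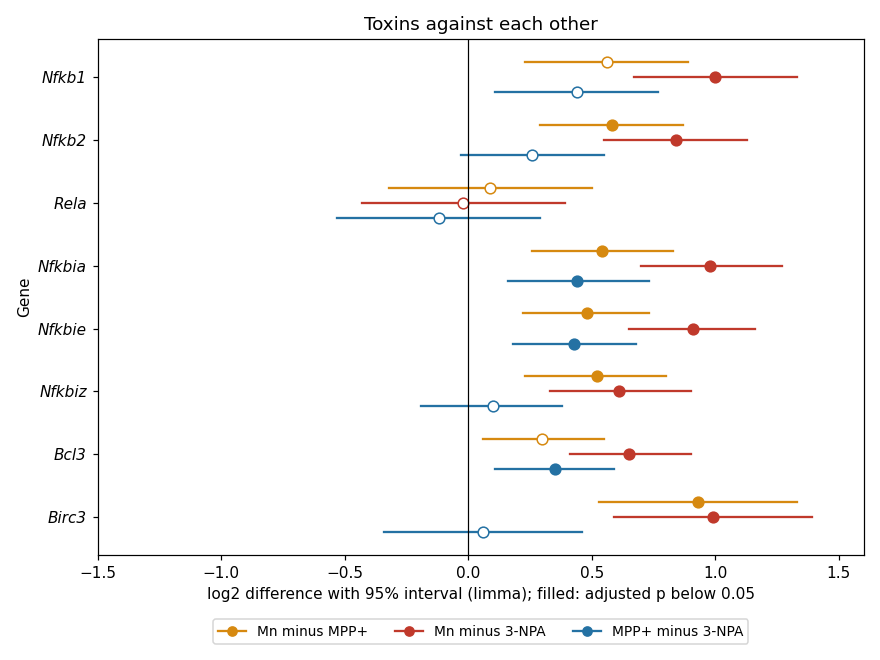
Log2 differences between toxins (the toxin named first minus the other) for the 8 genes, with 95% intervals from limma; filled points have an adjusted p below 0.05. All filled points lie right of 0: 5 for Mn minus MPP+, 7 for Mn minus 3-NPA and 3 for MPP+ minus 3-NPA.

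Among themselves, Nfkb1, Nfkbia and Nfkbie followed each other most closely over the 8 arrays, with Pearson correlations of 0.94 to 0.98, and Nfkb2 and Nfkbiz correlated at 0.91. Bcl3 correlated with Nfkbia at 0.91 but with Nfkb2 and Birc3 at 0.44, and Rela correlated with none of the others above 0.23. The arrays are 4 groups of 2 on 1 slide, so these are descriptions of how the groups are ordered. Among 7599 named genes whose group means spanned at least 0.5, Bcl3 was most like Glipr2 (r = 0.993), Nfkbia most like Tax1bp3 (0.986) and both Nfkb1 and Nfkbie most like Psme1 (0.976 and 0.979). Nfkbiz was most like Tnfaip2 (0.978), Nfkb2 most like Ext1 (0.963), Birc3 most like Fam162a (0.959) and Rela most like Ttbk2 (0.893). Many genes came close to these: among the 7599, r was above 0.9 for 309 genes with Bcl3, 203 with Nfkbia, 148 with Nfkbie and 145 with Nfkb1. The same held for 40 with Nfkbiz, 34 with Birc3, 28 with Nfkb2 and 0 with Rela. Tnfaip2, a gene induced by tumour necrosis factor, lay at 1.83 and 1.49 under Mn, 0.73 and 0.65 under MPP+, 0.33 and 0.30 under 3-NPA, and 0.93 and 0.73 in Control.

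The probe named LOC683206 is described in the array files as similar to tumour necrosis factor alpha-induced protein 3, and that gene's ID carries the symbol Tnfaip3 in the RefSeq table of GRCr8. Tnfaip3 encodes A20, a ubiquitin-editing enzyme that shuts off signalling to the IkB kinases. The probe, with 1 spot per array, gave -4.35 and -4.08 under Mn, -5.39 and -5.74 under MPP+, -5.56 and -5.63 under 3-NPA, and -7.03 and -4.84 in Control, where it was not well above background. The Mn arrays were the highest, but the Control arrays stood far apart from each other. The measured difference of Mn from Control was 1.72 ± 0.65 (limma, 95% interval 0.14 to 3.3, adjusted p = 0.166). The bound used for each Control array was the larger of the probe's own signal and the lowest signal among probes well above background. The Mn mean was 1.31-fold above that bound. This fold leaves out the spread between arrays, so it is not a lower limit of the difference. No comparison of this probe passed the test.

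**Figure D4:**
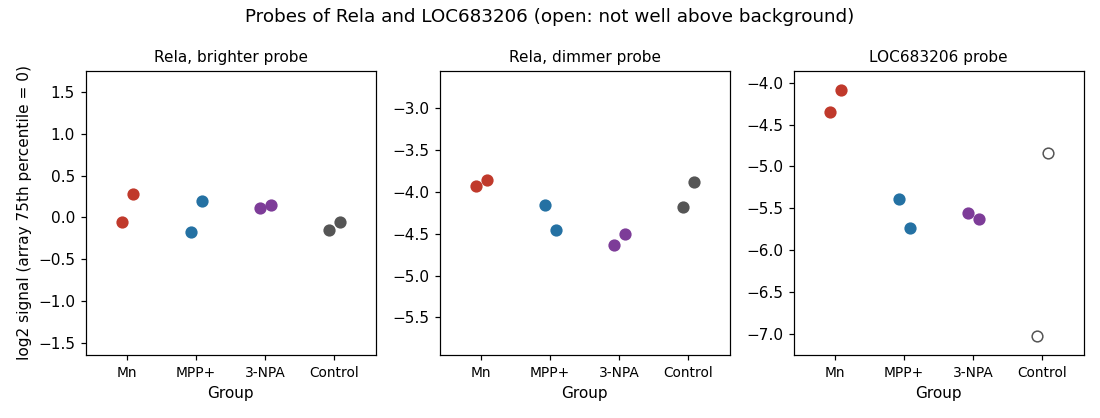
Log2 signal (array 75th percentile at 0) of the brighter and the dimmer Rela probe and of the LOC683206 probe on each array, by group, on panels of equal height; open points were not well above background. The dimmer Rela probe is lowest on the 3-NPA arrays while the brighter one is not, and the LOC683206 probe is highest on the Mn arrays with its Control points far apart.

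Genes around the pathway were set beside the members by lists, which were written with earlier results of these data known. No list was tested as a set. The shares of all genes called in either direction were 7.65% with Mn, 14.0% with MPP+ and 38.3% with 3-NPA. With Mn, the kinases Ikbke and Map3k14 were higher among 8 kinase genes tested (list median 0.03). Map3k14 encodes NIK, the kinase that starts p100 processing. It lay at -3.35 and -2.88 with Mn, against -3.80 and -4.01 in Control, a difference of 0.79 ± 0.17 (limma, adjusted p = 0.047). Ikbke, an IkB kinase relative, lay at 1.87 and 1.81 with Mn, against 1.1 and 1.37 in Control (0.61 ± 0.12, adjusted p = 0.0394). The Mn difference of Ikbkb, the IKK-beta gene, was -0.32 ± 0.10 (adjusted p = 0.105). With MPP+ none of the 8 kinase genes passed in limma, and the number with an unadjusted p under 0.05 was 0, Tab1 at 0.27 ± 0.12, Chuk at 0.42 ± 0.19 and Tbk1 at -0.51 ± 0.24 being those of smallest p (adjusted p = 0.181, 0.203 and 0.203). With 3-NPA, Tab1 was higher by 0.57 ± 0.12 and Chuk, the IKK-alpha gene, by 0.86 ± 0.19 (adjusted p = 0.0123 and 0.0171), while the Ikbke difference was 0.34 ± 0.12 (adjusted p = 0.0684). When any 1 array was left out, the number of kinase genes called was 0 or 1 with Mn and 0 to 3 with 3-NPA.

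Of 19 receptor and adaptor genes tested, 2 were higher and 1 lower with Mn, 2 higher and 2 lower with MPP+, and 7 higher and 2 lower with 3-NPA, with list medians of 0.16, -0.05 and 0.17. The shares of all genes called in either direction were 7.65%, 14.0% and 38.3%. Il1r1, the interleukin-1 receptor, lay at -4.0 and -4.35 with Mn and was called higher (limma, adjusted p = 0.00664). Its Control arrays were not well above background. The Mn mean was 1.35-fold above the bound used for Control, a fold that leaves out the spread between arrays. Il1r1 was also called higher with MPP+, at -5.0 and -5.47 (adjusted p = 0.0215), and with 3-NPA, at -4.59 and -5.16 (adjusted p = 0.00395). No fold is given for these because the group means lie below the bound used for Control. The tumour necrosis factor receptor gene Tnfrsf1a was lower with Mn, MPP+ and 3-NPA, by -0.41 ± 0.09, -0.37 ± 0.09 and -0.50 ± 0.09 (limma, adjusted p = 0.0442, 0.0386 and 0.00653). Cd40 was higher with Mn by 0.56 ± 0.10 (adjusted p = 0.0271), and the adaptor gene Myd88 was lower with MPP+ by -0.55 ± 0.13 (adjusted p = 0.0422). The Myd88 difference with Mn was also -0.55 ± 0.13, which did not pass (limma, adjusted p = 0.0598). With 3-NPA the receptor genes Cd40 and Tlr4 were higher, by 1.91 ± 0.10 and 1.94 ± 0.16 (adjusted p = 0.000153 and 0.000577), and Tlr2 was lower by -1.42 ± 0.13 (adjusted p = 0.000743). When any 1 array was left out, 1 to 2 of these genes were called with Mn, 0 to 4 with MPP+ and 5 to 10 with 3-NPA.

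Of 9 further feedback and ubiquitin genes, the deubiquitinase Cyld was lower with Mn (-0.47 ± 0.10, limma, adjusted p = 0.0497), with Itch at 0.21 ± 0.14 and Tnip1 at -0.24 ± 0.16 next by p (adjusted p = 0.395 and 0.4). None passed with MPP+ (unadjusted p under 0.05 for 2), where Tnip2 stood at 0.35 ± 0.12, Cyld at -0.28 ± 0.10 and Tax1bp1 at 0.20 ± 0.09 (adjusted p = 0.101, 0.135 and 0.178). With 3-NPA 1 was higher, the A20-binding gene Tnip2 (0.63 ± 0.12, adjusted p = 0.00845), and 3 were lower, among them Zc3h12a (-0.63 ± 0.16, adjusted p = 0.0252) and Itch (-0.51 ± 0.14, adjusted p = 0.0349). The list medians were -0.09, -0.12 and -0.27, and the shares of all genes called in either direction were 7.65%, 14.0% and 38.3%. Of the other Rel and IkB genes, Nfkbib and Nfkbid were tested. The IkB-beta gene Nfkbib was lower with 3-NPA (-0.60 ± 0.14, adjusted p = 0.0183). Nfkbid was called higher with 3-NPA (adjusted p = 0.0255), its Control arrays not being well above background. Its 3-NPA mean was 1.51-fold above the bound used for Control, a fold that leaves out the spread between arrays. With Mn and MPP+ neither gene passed (unadjusted p under 0.05 for 2 and 0 of the 2), Nfkbib standing at -0.34 ± 0.14 and -0.12 ± 0.14 (adjusted p = 0.193 and 0.606) and Nfkbid having an adjusted p of 0.161 and 0.177. The list medians were 0.15 with Mn, 0.21 with MPP+ and 0.16 with 3-NPA. Each is the midpoint of these 2 genes, which had opposite signs, and rests on Nfkbid values against a Control not well above background. With 1 array left out, Cyld passed under none of the 8 choices with Mn, since no gene of its list did, and with 3-NPA the calls ran from 1 to 5 in the feedback list and from 0 to 2 among the Rel and IkB genes.

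Of 26 inflammatory target genes of NF-kB tested, 12 were higher and none lower with Mn (median 0.54, with an unadjusted p under 0.05 for 17 in either direction), 2 were higher and 8 lower with MPP+ (median -0.30), and 6 were higher and 12 lower with 3-NPA (median -0.30). The shares of all genes called in either direction were 7.65%, 14.0% and 38.3%. By direction, 4.50% of all genes were called higher with Mn, 6.48% lower with MPP+ and 16.0% lower with 3-NPA. The target list too was written with earlier results of these data known and was not tested as a set. With Mn, Nos2, the inducible nitric oxide synthase, lay at -2.49 and -2.45 and was called higher (limma, adjusted p = 0.0014). Its Control arrays were not well above background. The Mn mean was 4.38-fold above the bound used for Control, a fold that leaves out the spread between arrays. Nos2 was also called higher with MPP+ and with 3-NPA (adjusted p = 0.0198 and 0.00246), where the group means lay below that bound. The chemokine gene Cx3cl1 lay at 6.24 and 6.0 with Mn, against 4.58 and 4.48 in Control (1.59 ± 0.11, adjusted p = 0.00214). It was also called higher with 3-NPA, by 0.60 ± 0.11 (limma, adjusted p = 0.00862). The cytokine gene Csf2 was called higher with Mn, again against Control arrays that were not well above background (adjusted p = 0.00206). Its Mn mean was 2.72-fold above the bound used for Control, a fold that again leaves out the spread between arrays.

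With MPP+, the chemokine gene Ccl7 was lower by -1.88 ± 0.14, the immediate early gene Ier3 by -1.17 ± 0.09 and the complement gene C3 by -1.23 ± 0.11 (limma, adjusted p = 0.00188, 0.00237 and 0.00252). All of them were also called lower with 3-NPA, by -0.61, -0.98 and -0.42 (adjusted p = 0.017, 0.000973 and 0.0251). Ccl7 was called higher with Mn, by 1.00 ± 0.14 (adjusted p = 0.0132). With 3-NPA, the chemokine gene Ccl20 lay at -3.05 and -3.19, against 0.07 and 0.49 in Control (-3.40 ± 0.16, adjusted p = 0.000122), while Ccl5 and Cxcl10 were higher by 2.09 ± 0.15 and 1.45 ± 0.13 (adjusted p = 0.000405 and 0.000738). Ccl5 was also called higher with Mn and with MPP+, by 1.25 ± 0.15 and 0.80 ± 0.15 (limma, adjusted p = 0.00883 and 0.0222). The target genes thus moved in both directions with 3-NPA, whereas all 4 called members moved down. Fitting only the 4 arrays compared left 1 target gene called with Mn and 4 with MPP+, and leaving out 1 array left 9 to 11 with Mn, 4 to 11 with MPP+ and 12 to 18 with 3-NPA.

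Markers of microglia and macrophages, which also carry such genes, were measured beside them. Of 7 markers 6 were tested, and Ptprc, which encodes the leukocyte antigen CD45, was not well above background on any array. The summed linear signal of the 6, in units of the array's 75th percentile, was 0.582 to 0.598 with Mn, 0.360 to 0.410 with MPP+ and 0.763 to 0.785 with 3-NPA, against 0.432 to 0.560 in Control. With 3-NPA 4 of the 6 were higher, where 38.3% of all genes were called in either direction and 3769 of the 16921 were called higher. None passed with Mn (unadjusted p under 0.05 for 2) or MPP+ (for 1). With 3-NPA, where 4 members fell, summed signals of other marker lists were also higher: 4.26 to 4.75 against 1.6 to 1.67 in Control for 2 neuronal markers (1 higher, 1 lower), 1.43 to 1.45 against 0.669 to 0.769 for 3 fibroblast markers (2 higher), 0.153 to 0.156 against 0.0730 to 0.0962 for 3 oligodendrocyte markers (2 higher) and 0.818 to 0.826 against 0.653 to 0.692 for 6 dopaminergic markers (2 higher). For 3 astrocyte markers (1 higher, 1 lower) the sums were 0.412 to 0.419 with 3-NPA and 0.453 to 0.455 in Control. With MPP+, where Nfkbia and Bcl3 fell, the fibroblast sum was 0.333 to 0.384 (1 of 3 markers lower, Col1a1 by -1.06), the neuronal sum 2.21 to 2.37 (1 of 2 higher), the astrocyte sum 0.382 to 0.395 (1 of 3 higher, 1 lower), the dopaminergic sum 0.582 to 0.647 (1 of 6 higher, 1 lower) and the oligodendrocyte sum 0.0833 to 0.0994 (none of 3 called). With Mn, where Nfkb2 rose, the fibroblast sum was 1.06 to 1.13 (1 of 3 higher), the neuronal sum 2.0 to 2.70 (1 of 2 higher), the astrocyte sum 0.333 to 0.362 (1 of 3 lower, Gja1), the dopaminergic sum 0.640 to 0.672 (1 of 6 lower) and the oligodendrocyte sum 0.110 to 0.113 (none of 3 called). The part of any of these in the differences of members or target genes was not tested.

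**Figure D5:**
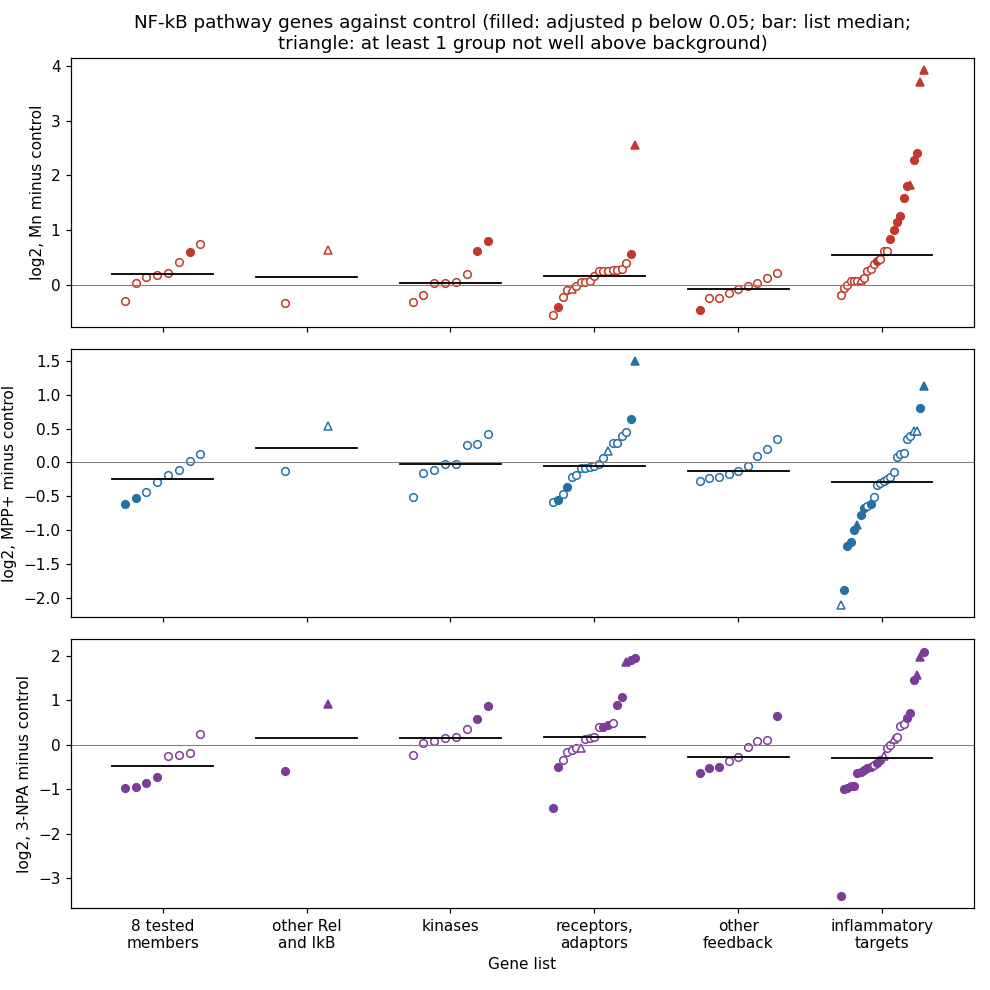
Log2 difference from Control of each tested gene of the members and of the 5 pathway lists, with Mn, MPP+ and 3-NPA from top to bottom; filled points have an adjusted p below 0.05 in limma, bars are list medians, and each row has its own scale. Triangles are genes with at least 1 of the groups not well above background, so their heights are not measured differences. Among the circles with Mn, Ptgs2 stands at 2.41, Vcam1 at 2.28, Cxcl2 at 1.8 and Cx3cl1 at 1.59. Ccl20 stands at -3.40 with 3-NPA, and the members stay between -0.97 and 0.74.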

How the data were processed

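RNA of 8 samples of rat N27 cells (2 per group) was hybridised to single-colour Agilent arrays. The deposited intensity values are processed signals from Feature Extraction 11.5.1.1, background-subtracted and detrended within the array and not normalized between arrays, per the file headers, with probe positions on rn4. The deposited value table holds log2 values with column medians of -3.99 to -4.38, and how it was made is not given in the sources used here. It was used as an alternative, since it correlated with the log2 processed signal at 0.9966 or more and its centring fits the 75th percentile. Control spots and outlier spots were left out, spots of a probe averaged on the log2 scale and each array's 75th percentile set to 0. A probe was well above background where more than 0.5 of its spots were, and kept where that held on both arrays of at least 1 group, and the brightest of a gene's kept probes stood for it (16921 genes). limma 3.58.1 in R 4.3.3 fitted all 8 arrays without covariates, after a check on simulated data. A gene was called at a Benjamini-Hochberg adjusted p below 0.05. Every member is named, with the 3 genes of smallest p in each list and comparison and, for each member, the gene most like it. Members and lists were chosen with earlier results of these data known. Traf1 stands in both the receptor and the target list. The alternatives changed background correction, scaling, filter, probe choice, variance model, arrays fitted and replicate block.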

Additional observations from a re-analysis of the deposited data

How the results depend on the processing

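With 2 arrays per group the number of arrays limits the precision, and counts of calls moved more than the fold changes. Counts are given in the order Mn, MPP+ and 3-NPA against Control, then Mn against MPP+, Mn against 3-NPA and MPP+ against 3-NPA, with 1, 2, 4, 5, 7 and 3 members called. Of the 8 members, 2 were called with Mn against Control under normexp, without a filter, with the filter on all 8 arrays and with trend and robust variances, and 0 with array weights, the 4 arrays, the 6 arrays of the first extraction run or the replicate block. For MPP+ against Control, 0 were called with scaling to the median or with the 4 arrays, and 1 with array weights or the 6 arrays. For Mn against MPP+, 3 were called under normexp, 2 with scaling to the median or the replicate block, and 0 without a filter, with the 4 arrays or with the 6 arrays. For MPP+ against 3-NPA, 5 were called with scaling to the median or array weights and 0 without a filter. Leaving out 1 array gave 0 to 1, 0 to 1, 4 to 5, 0 to 3, 5 to 7 and 0 to 4 members. Where limma called 0 members, an unadjusted p under 0.05 was found for 2 to 4 (Mn against Control), 2 to 3 (MPP+ against Control), 6 to 7 (Mn against MPP+) and 2 to 4 (MPP+ against 3-NPA) of the 8.

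All genes called numbered 1294, 2362, 6477, 1536, 4843 and 5244. Without a filter the counts were 7055, 8845 and 11934 against Control, of which 6030, 7353 and 8370 were lower, and 579 for Mn against MPP+. The median of all genes against Control was then -0.21, -0.22 and -0.27. Trend and robust variances gave 2350 for Mn against MPP+, and array weights gave 439 for Mn against Control and 7997 for MPP+ against 3-NPA. With the 4 arrays compared the counts were 6 (Mn), 987 (MPP+) and 309 (Mn against MPP+), and with the 6 arrays 653, 1288 and 645. Leaving out 1 array gave 569 to 1276, 477 to 2387, 3596 to 6715, 210 to 1706, 2137 to 5335 and 2264 to 5772.

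Every sign change was of a difference that did not pass in the main fit. Normexp gave -0.02 for Nfkb1 with Mn and -0.02 for Nfkb2 with MPP+. For Rela, scaling to the median gave 0.19 (Mn against 3-NPA) and 0.14 (MPP+ against 3-NPA), and the mean over its probes gave -0.08 (MPP+), -0.15 (3-NPA), 0.33 (Mn against 3-NPA) and 0.08 (MPP+ against 3-NPA). With that mean, all 8 members, Rela among them, had an unadjusted p under 0.05 in limma for Mn against 3-NPA. The dimmer Rela probe alone did pass, with signs opposite to the brighter one: -0.54 with 3-NPA and 0.67 for Mn against 3-NPA (limma, adjusted p = 0.0353 and 0.0224). Leaving out 1 array, Nfkb1 with Mn ran from -0.01 to 0.27, Nfkbia with Mn from -0.04 to 0.08, Nfkb2 with MPP+ from -0.12 to 0.16, Rela with MPP+ from -0.07 to 0.31, Rela between Mn and MPP+ from -0.09 to 0.28, between Mn and 3-NPA from -0.19 to 0.15 and between MPP+ and 3-NPA from -0.31 to 0.07, and Birc3 between MPP+ and 3-NPA from -0.07 to 0.20. The causes were not tested. The labels do not say whether arrays with the same replicate number share a culture, day or batch. Same-numbered arrays deviated together with correlations of -0.02 to 0.50, the highest between Mn and 3-NPA. The replicate block is reported here alone.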
